A study of Mus musculus with 6 samples.

Results

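Transcripts of the Hippo pathway genes that take part in the first lineage choice of the mouse embryo were examined in blastocysts cultured with a miR-30d mimic. The set was fixed by name as Yap1, Wwtr1, Lats1, Lats2, Amot, Amotl2, Nf2 and Stk3, and every probe annotated to one of them was used. Of these 8 genes 7 had probes, 9 probes in all among 33026 named probes of 22485 genes. Lats2 and Nf2 had 2 probes each and the others 1, and Stk3 had none among the named probes used here. No measured value entered the choice of genes, although it was made with earlier results of these data known.

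The samples were whole blastocysts of the B6C3F1 hybrid strain, flushed as early embryos from superovulated and mated females aged 6 to 8 weeks and collected on day 5 after culture for 72 hours with 400 nM of a synthetic RNA. The RNA was a miR-30d mimic in 3 samples and, in the other 3 samples, a scrambled oligonucleotide with the dye Alexa 488 attached. The comparison asks how transcripts of the embryo respond to a microRNA that the endometrium secretes. Only the scramble is described as dye-labelled, and arrays of embryos without any oligonucleotide were not analysed here, so an effect of the dye or of the scramble and an effect of the mimic cannot be told apart. Each sample was drawn from a culture of 30 embryos per condition, and its RNA was hybridised to its own 1-colour array. The titles call the samples biological replicates. Whether the cultures came from separate matings is not stated, so the spread behind each p-value may be partly technical.

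As background, the Hippo pathway is a kinase cascade that keeps the coactivators YAP (from Yap1) and TAZ (from Wwtr1) out of the nucleus. In the outer cells of the embryo apical polarity holds angiomotin (Amot) away from the junctions, the LATS kinases stay inactive, and YAP and TAZ enter the nucleus, join the DNA-binding factor TEAD4 and switch on Cdx2 and Gata3 for the trophectoderm. In the apolar inner cells angiomotin and Merlin (from Nf2) activate LATS kinases at the junctions, YAP is phosphorylated and kept in the cytoplasm, and Sox2 is expressed. Most of this control acts on the phosphorylation and location of proteins, which arrays of transcripts do not measure.

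The promoters of the genes are shown because TEAD factors bind a short DNA motif, and because Lats2 and Amotl2 are known as targets of YAP that restrain it in turn. The motif GGAATG, or CATTCC on the other strand, was searched in RefSeq windows of assembly GRCm38.p6 that run from 250 bases before to 50 bases after a transcript start. It was present in 4 of the 7 genes with a window, namely Yap1, Wwtr1, Lats2 and Amotl2. The share over all genes was not computed. By window it was present in 5 of the 10 windows of the 7 genes, against 14.7% of all 32851 windows. The overlapping windows of Wwtr1 hold the same match, which the 5 thus count in both. The Lats2 match lay behind the start and is not printed. The letters were not found in the windows of Lats1, Amot and Nf2. In the stretches below, 30 bases on each side of the match are in lower case and the match is in capitals, read 5′ to 3′ on the strand of the gene. The Yap1 stretch lies at chr9:8004702-8004767 on the minus strand, with its match 141 to 136 bases before the start. The Wwtr1 stretch lies at chr3:57576011-57576076 on the minus strand, with its match 136 to 131 bases before the nearer start. The Amotl2 stretch lies at chr9:102717709-102717774 on the plus strand, with its match 65 to 60 bases before the start. A match is a description of the letters and no evidence of binding in these embryos.
Yap1: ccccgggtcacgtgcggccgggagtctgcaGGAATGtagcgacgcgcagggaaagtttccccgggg
Wwtr1: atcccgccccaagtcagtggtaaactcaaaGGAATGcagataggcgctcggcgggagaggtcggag
Amotl2: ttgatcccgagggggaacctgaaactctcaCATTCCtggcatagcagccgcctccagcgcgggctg

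The replicate 1 arrays of both groups stood apart from the other arrays. Over all named probes scramble replicate 1 correlated at 0.916 to 0.922 with the others and mimic replicate 1 at 0.918 to 0.947, whereas the remaining 4 arrays correlated at 0.974 to 0.988 with one another. The replicate 1 arrays also carried only 2108 and 2683 distinct values, against 4410 to 5979 on the others, so their readings are coarser. Each log2 difference and list median below is therefore given also without them where that changes its direction or moves it by more than 1.5 times. Counts of unadjusted p under 0.05 without them are given in the closing section. All 6 trophectoderm markers read bright, led by the keratin gene Krt18 at a mean log2 signal of 15.76, as did 4 of 5 epiblast and 4 of 5 primitive endoderm markers. No marker of blood, oviduct or sperm averaged above 7.41, near the median of 7.22 for features without a gene name, and of the 5 cumulus and granulosa markers only Foxl2 (12.69) exceeded 8.11.

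None of the 7 measured Hippo genes passed the threshold for a difference with the mimic. In the limma fit 0 of their 9 probes passed an adjusted p of 0.05 and 0 had an unadjusted p under 0.05, against 0% of all 24769 tested probes at the adjusted threshold and 3.11% (770 probes) at the unadjusted one. With the replicate number as a block, again 0 of the 9 passed and 0 had an unadjusted p under 0.05. Of all 24769 probes 1 and 1755 did so, and in the gene fit 0.00575% and 7.24% of all genes. All 9 probes passed the filter that left out the lowest 25% of named probes. In no probe were the groups free of overlap, which was the case in 9.8% of all probes. With 1 probe a gene, the brighter one, 4 genes had higher and 3 had lower means with the mimic (53.2% of all genes were higher), the log2 differences went from -0.22 to 0.20, and their median was 0.01 against 0.02 over all 17399 genes. With single arrays left out this median went from -0.06 to 0.08, and without both replicate 1 arrays 5 of the 7 were higher and the median was 0.04. A p that misses the threshold does not show equality. The intervals below are from the fit without the block and say how large a difference each probe leaves possible in that fit. With the block the estimates were the same and the SEs of all 9 probes were smaller. They went from 0.10 for Yap1 and Amotl2 to 0.31 for the dimmer Nf2 probe. For a single probe the smallest two-sided p of the exact permutation test with 3 arrays against 3 is 0.1.

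**Figure D1:**
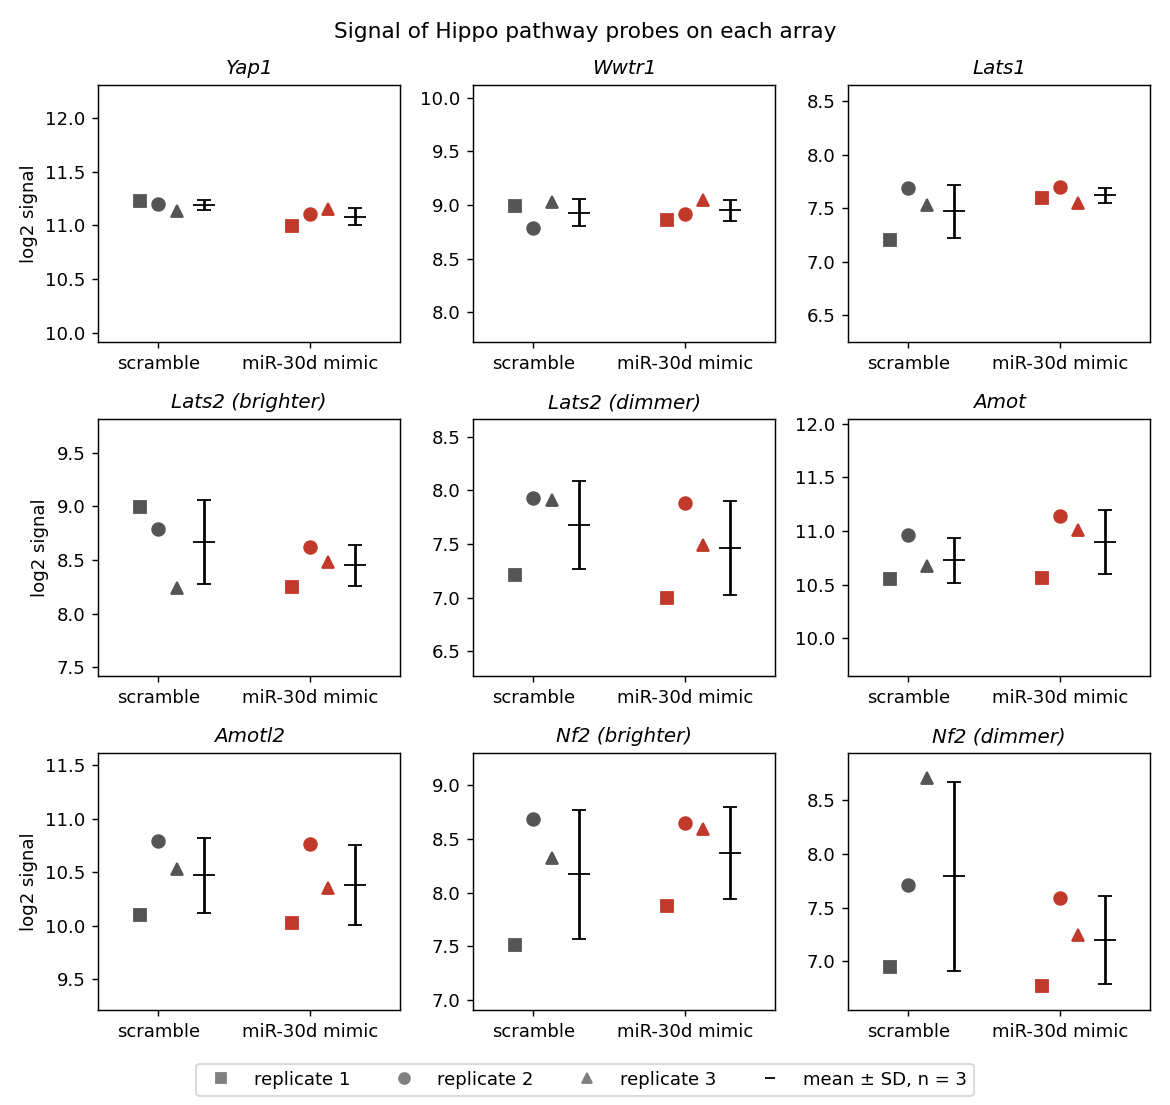
Log2 signal (vertical axis, a span of the same size in each panel) of the 9 probes on the 3 scramble arrays (grey) and the 3 miR-30d mimic arrays (red), with the mean and SD of each group (n = 3) in black. The groups overlap in every panel. The replicate 1 arrays (squares) are the lowest in both groups for Amot, Amotl2, both Nf2 probes and the dimmer Lats2 probe, while all Yap1 values lie between 10.99 and 11.23.

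Yap1, which encodes the coactivator YAP, was the steadiest transcript of the set. Its log2 signal was 11.23, 11.20 and 11.13 on scramble replicates 1 to 3 and 10.99, 11.11 and 11.15 on mimic replicates 1 to 3. The highest readings were from scramble arrays and the lowest from mimic replicate 1, but mimic replicate 3 lay above scramble replicate 3. The group means were 11.19 ± 0.05 and 11.08 ± 0.08 (SD, n = 3 each), which differ by -0.10 (SE 0.12) on the log2 scale. The 95% interval went from -0.38 to 0.17, a mimic level between 0.768 and 1.13 times that of the scramble (limma adjusted p = 0.979, exact permutation p = 0.2). Without both replicate 1 arrays the difference was -0.04.

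Wwtr1, which encodes TAZ, the partner of YAP in this pathway, read 8.99, 8.79 and 9.03 with scramble and 8.86, 8.92 and 9.05 with the mimic. The lowest reading was that of scramble replicate 2 and the highest that of mimic replicate 3, and the groups were interleaved. The means were 8.93 ± 0.13 and 8.95 ± 0.10 (SD, n = 3 each), with a difference of 0.01 (SE 0.20, 95% interval -0.45 to 0.48). Its sign is undetermined, since it was -0.01 after quantile normalization, 0.08 without both replicate 1 arrays and -0.06 when scramble replicate 2 was left out (limma adjusted p = 1 and exact permutation p = 0.9 on all arrays). The pooled SD of Yap1 within groups, 0.07, was larger than that of only 1.2% of the tested probes, and the 0.11 of Wwtr1 than that of 6.2%, where the median over all probes was 0.30.

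Of the LATS kinases, which phosphorylate YAP and TAZ, Lats1 was read at a mean of 7.55. That is above the mean of 54.1% of named probes, but close to the level of unnamed features. Lats1 had 7.20, 7.69 and 7.53 with scramble and 7.60, 7.70 and 7.55 with the mimic. A single array, scramble replicate 1, was low and the other 5 lay within 7.53 to 7.70. The means were 7.47 ± 0.25 and 7.62 ± 0.07 (SD, n = 3 each) and the log2 difference was 0.14 (SE 0.25, 95% interval -0.42 to 0.70, limma adjusted p = 0.98). Leaving out scramble replicate 1 alone, or the replicate 1 arrays of both groups, gave 0.01. So close to the level of unnamed features, 7.22, a true difference may be understated.

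Lats2, the other LATS kinase gene, was read by probes annotated to different RefSeq transcripts, which ordered the arrays differently. The brighter probe (NM_015771) had 8.99, 8.79 and 8.24 with scramble and 8.25, 8.62 and 8.48 with the mimic, which differ by -0.22 (SE 0.29, 95% interval -0.87 to 0.43). The dimmer probe (NM_153382) had 7.21, 7.93 and 7.91 with scramble and 7.0, 7.88 and 7.49 with the mimic, which differ by -0.23 (SE 0.33, 95% interval -0.97 to 0.52). Scramble replicate 1 was thus the highest scramble array on the brighter probe and the lowest on the dimmer one. Both estimates were below 0 with a limma adjusted p of 0.979 and an exact permutation p of 0.5. The brighter probe turned to 0.04 without both replicate 1 arrays, and the dimmer one to 0.00095 without mimic replicate 1. Stk3, which encodes the MST2 kinase that acts on the LATS kinases, has no value here, and its paralog Stk4 is given with the wider pathway.

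Amot encodes angiomotin, the junction protein that activates the LATS kinases in inner cells. It read 10.55, 10.96 and 10.67 with scramble and 10.56, 11.14 and 11.01 with the mimic. The replicate 1 arrays of both groups were lowest and nearly equal, and mimic replicates 2 and 3 were the highest of all. The means were 10.73 ± 0.21 and 10.90 ± 0.30 (SD, n = 3 each), and the mimic mean was higher by 0.18 (SE 0.19, 95% interval -0.24 to 0.60, or 0.844 to 1.52 times). It was positive in all 3 same-numbered pairs, at 0.01, 0.19 and 0.34, and did not pass (limma adjusted p = 0.979, exact permutation p = 0.4). The estimate became 0.06 without mimic replicate 2, 0.35 without mimic replicate 1, and 0.26 on replicates 2 and 3 of each group alone.

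Amotl2 encodes a relative of angiomotin that binds YAP as well, and it carries the motif in the promoter stretch shown above. It read 10.10, 10.79 and 10.53 with scramble and 10.03, 10.76 and 10.35 with the mimic, so that the arrays of each number lay closer to each other than to the rest of their group. The means were 10.47 ± 0.35 and 10.38 ± 0.37 (SD, n = 3 each) and the log2 difference was -0.09 (SE 0.23, 95% interval -0.62 to 0.44, limma adjusted p = 0.986, exact permutation p = 0.7). Each same-numbered pair gave a small negative value, -0.07, -0.03 and -0.18. The estimate turned to 0.08 without mimic replicate 1 and to 0.07 when scramble replicate 2 was left out.

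Nf2 encodes Merlin, which recruits LATS kinases to the membrane, and was the most variable gene of the set. Its brighter probe read 7.51, 8.69 and 8.32 with scramble and 7.87, 8.65 and 8.59 with the mimic. Its dimmer probe read 6.95, 7.71 and 8.71 with scramble and 6.77, 7.59 and 7.24 with the mimic. Both probes were lowest on the replicate 1 arrays, but they parted on scramble replicate 3, which was the highest of all arrays on the dimmer probe only. The log2 difference was 0.20 (SE 0.39, 95% interval -0.68 to 1.07) on the brighter probe and -0.59 (SE 0.44, 95% interval -1.58 to 0.40) on the dimmer one, with limma adjusted p of 0.982 and 0.979. The probes thus disagree in sign, and the mean of both gave -0.20. The brighter probe turned to -0.13 without scramble replicate 1 and was 0.12 without both replicate 1 arrays, and the dimmer one grew to -1.01 without scramble replicate 1 and shrank to -0.13 when replicate 3 of the scramble was left out, with -0.80 when both replicate 1 arrays were left out. A 2-fold fall lies within the interval of the dimmer probe and outside that of the brighter one. On the dimmer probe the mimic mean was 7.20, beside the 7.22 of unnamed features, so its estimate is not a firm value.

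**Figure D2:**
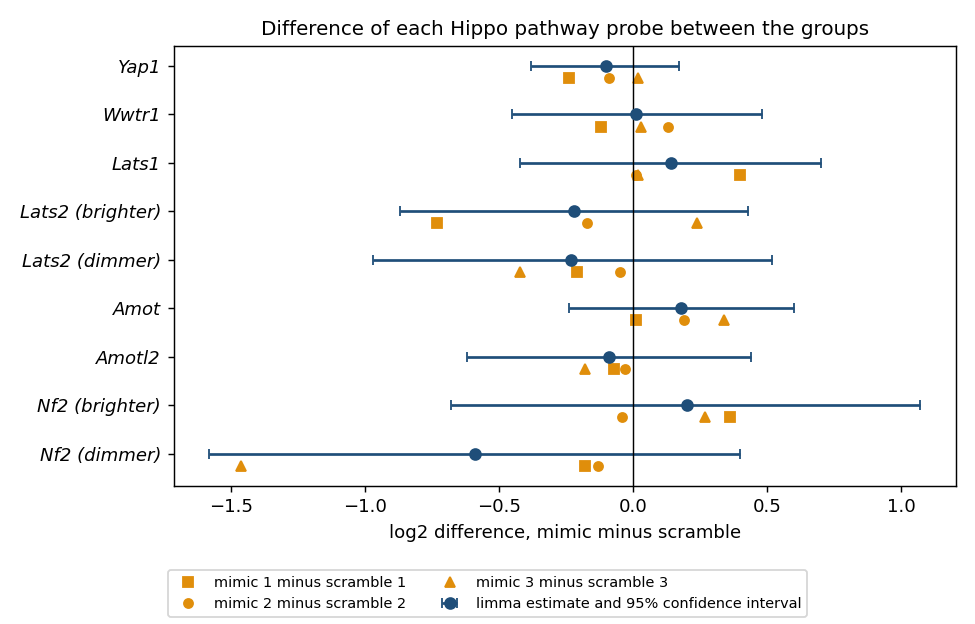
Log2 difference, mimic minus scramble (horizontal axis), of the 9 probes, with the limma estimate and its 95% confidence interval in blue and the difference of each same-numbered pair of arrays in orange. Every interval includes 0, from the narrow one of Yap1 (-0.38 to 0.17) to the wide one of the dimmer Nf2 probe (-1.58 to 0.40), whose estimate rests on the third pair (-1.46).

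Several of these genes were lower on the replicate 1 arrays of both groups. In 5 of the 9 probes both replicate 1 arrays lay below all other arrays, which was so in 25.6% of all tested probes, and in 0 they lay above all others (12.3% of all probes). These were the probe of Amot, that of Amotl2, both of Nf2 and the dimmer one of Lats2. The mean of the replicate 1 arrays minus that of the other arrays was -0.39 for Amot, -0.55 for Amotl2, -0.69 for the dimmer Lats2 probe, and -0.87 and -0.96 for the Nf2 probes. The median of this difference was -0.09 over all tested probes, of which the central 90% ran from -0.89 to 0.82. Yap1 (-0.04), Wwtr1 (-0.02) and the brighter Lats2 probe (0.09) showed little of it. What set the replicate 1 arrays apart was not tested.

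**Figure D3:**
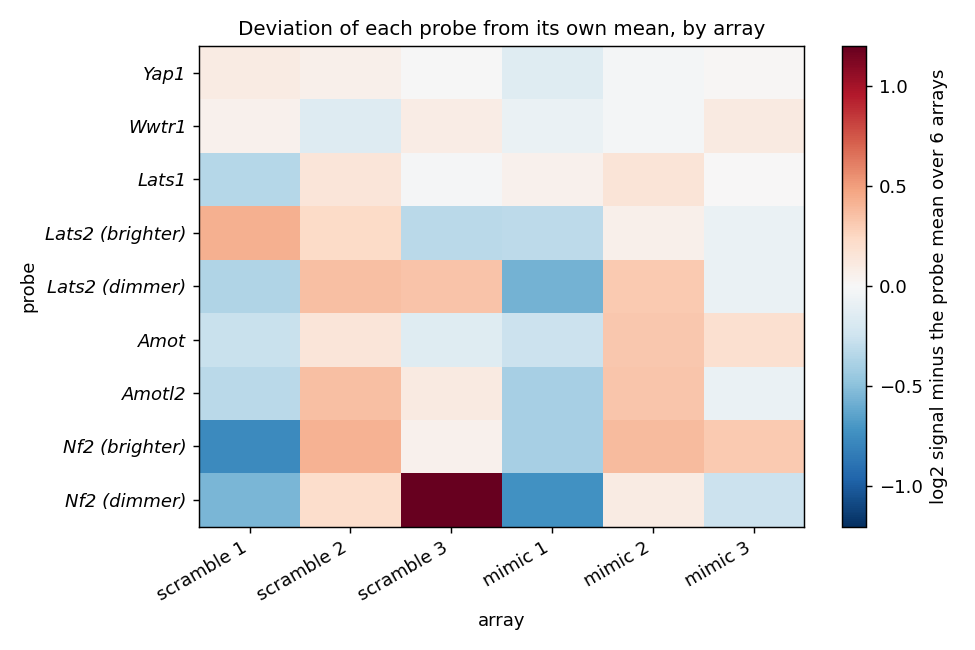
Log2 signal minus the mean of the same probe over the 6 arrays (colour, red above and blue below the mean), with probes as rows and arrays as columns. The scramble 1 and mimic 1 columns are blue for Amot, Amotl2, both Nf2 probes and the dimmer Lats2 probe. The Yap1 and Wwtr1 rows are pale throughout, and the darkest red cell is scramble 3 on the dimmer Nf2 probe.

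As a description over 6 arrays, the genes whose pattern was most like that of Yap1 among 17398 others were Wdr5 (Pearson r = 0.996), Ndufaf4 (0.994) and Aopep (0.985). Those most like Amot were Nde1 (0.999), Phkb (0.996) and Ywhaq (0.994). With so few arrays high values are common, and 42 genes exceeded an r of 0.95 with Yap1 and 242 with Amot. The values share the same 6 arrays and carry no statement on function.

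Among the other kinases, adaptors and upstream regulators of the cascade, 18 of 20 passed the filter on dim probes. Of these 13 had higher and 5 lower means with the mimic, where 53.2% of all genes were higher. Their median was 0.13 on the log2 scale, or 0.10 over all 20 without the filter. Fat4 and Tnik, both among the 13, had scramble means of 7.03 and 7.10, under the filter level of 7.16. They thus passed only through the mimic arrays. In this list 0 passed the limma threshold adjusted over all genes, against 0% of all genes, and 0 had an unadjusted p under 0.05 (3.17% of all genes, 552). With the replicate block 1 of the 18 had an unadjusted p under 0.05, near the 7.24% of all genes. Map4k4, a kinase that can act on the LATS kinases beside the MST kinases, read 8.65, 9.38 and 9.47 with scramble and 9.46, 9.89 and 9.88 with the mimic. The lowest mimic array lay just under the highest scramble array, the difference was 0.58 (SE 0.26, limma adjusted p = 0.972), and it was 0.32 without scramble replicate 1. Stk4, which encodes the MST1 kinase, differed by 0.28 (SE 0.20), a value that shrank to 0.12 without mimic replicate 1 and to 0.06 without both replicate 1 arrays. Wtip, a LIM protein of the Ajuba family that restrains LATS, had 0.19 (SE 0.13) with groups that did not overlap, as in 9.7% of all genes, and fell to 0.12 without scramble replicate 1. The median of this list was 0.07 without both replicate 1 arrays.

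All 8 TEAD genes and cofactors of the VGLL family were tested, 3 with higher and 5 with lower means, where 53.2% of all genes were higher. Their median difference was -0.06 on the log2 scale, with 4 higher and a median of -0.0021 without both replicate 1 arrays. Vgll2, among the lower genes, had a mimic mean of 7.13, under the filter level of 7.16, and passed only through the scramble arrays. In the limma fit 0 of the 8 passed, against 0% of all genes. Likewise 0 had an unadjusted p under 0.05, against 3.17% of all genes. Tead4, the DNA-binding partner of YAP needed for the trophectoderm, read 10.37, 10.20 and 9.80 with scramble and 9.90, 9.85 and 9.92 with the mimic. The mimic arrays were close together and lay inside the scramble range, so the difference of -0.23 (SE 0.17, limma adjusted p = 0.972) came from scramble replicates 1 and 2. Without scramble replicate 1 it shrank to -0.11, and with both replicate 1 arrays left out to -0.12. Tead3 differed by 0.40 (SE 0.28) and the cofactor gene Vgll3 by 0.27 (SE 0.26). Without scramble replicate 1 they differed by 0.26 and 0.15, and Vgll3 by 0.43 with mimic replicate 1 left out.

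Among transcripts widely used as readouts of YAP and TAZ, none passed the test. Of 19 genes 15 passed the filter, 10 with higher and 5 with lower means where 53.2% of all genes were higher. Their median difference was 0.35, against 0.02 over all genes, and without the filter the median over the 19 was 0.25. Ankrd1, among the 10, had a scramble mean under the filter level of 7.16. Arhgef17, among the 5, had a mimic mean (7.12) under it, so each passed only through its brighter group. In the limma fit 0 passed, while F3 and Dock5 (2 of 15) had an unadjusted p under 0.05, against 3.17% of all genes, and 4 of 15 did with the replicate block, against 7.24% of all genes. F3, the gene of tissue factor, read 9.90, 10.39 and 10.63 with scramble and 10.62, 11.01 and 11.15 with the mimic. Each mimic array exceeded the scramble array of its number, by 0.72, 0.63 and 0.52, although the lowest mimic reading fell marginally under the highest scramble reading. The difference was 0.62 (SE 0.22, 95% interval 0.13 to 1.11, limma adjusted p = 0.972, exact permutation p = 0.2). With the replicate number as a block the adjusted p of F3 was 0.351.

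Dock5, which encodes a guanine nucleotide exchange factor, read 7.60, 9.45 and 9.24 with scramble and 9.68, 10.03 and 9.83 with the mimic. The groups did not overlap in 2 of the 15 tested targets, Dock5 among them, against 9.7% of all genes. On Dock5 all mimic arrays lay above all scramble arrays, and scramble replicate 1 was far below the rest. The log2 difference was 1.08 (SE 0.44, limma adjusted p = 0.972), and leaving out scramble replicate 1 reduced it to 0.50, and leaving out both replicate 1 arrays to 0.58. Ankrd1, an ankyrin repeat gene, had 0.55 (SE 0.26) at a low level, with means of 6.99 ± 0.36 and 7.55 ± 0.35 (SD, n = 3 each). Its scramble mean lay under the filter level of 7.16, so it passed only through the mimic arrays, and its difference from so dim a level is not a firm value. The matricellular genes Ccn1 and Ccn2, the most familiar YAP readouts, are added here after their values were seen. Ccn1 had 0.44 (SE 0.21) and was higher in 3 of 3 same-numbered pairs, and Ccn2 had 0.35 (SE 0.42) and was higher in 2 of 3. Ccn2 rested on single arrays, with 0.09 without mimic replicate 3, 0.77 without mimic replicate 1 and 0.55 without both replicate 1 arrays.

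The median of these target genes depended on single arrays. It was 0.12 without mimic replicate 3, 0.18 without mimic replicate 2 and 0.19 without both replicate 1 arrays, where 11 of 15 had higher means. The median level of the tested target genes was 7.66, against 7.94 over all genes tested. Amotl2 and Lats2, which belong to the same class of targets, had means below those of the scramble on every probe, as given above. Those signs were not stable. Without mimic replicate 1 Amotl2 turned to 0.08 and the dimmer Lats2 probe to 0.00095, and the brighter Lats2 probe was 0.04 without both replicate 1 arrays.

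The lineage genes that Hippo signalling sets in the blastocyst were all tested, 3 higher and 3 lower (53.2% of all genes were higher). Their median of 0.08 turned to -0.13 without both replicate 1 arrays. Cdx2, the trophectoderm regulator, read 13.00, 13.73 and 13.27 with scramble and 12.14, 12.90 and 13.10 with the mimic. It was lower with the mimic in each same-numbered pair, with pair differences of -0.86, -0.83 and -0.17, with overlapping groups and a difference of -0.62 (SE 0.28, limma adjusted p = 0.972, exact permutation p = 0.2). Without mimic replicate 1 it was -0.33. Gata3, the other trophectoderm gene under TEAD4, had -0.09 (SE 0.13), or -0.19 without both replicate 1 arrays, and is named, after its value was seen, because it shares that role. Sox2, the inner cell mass factor repressed by YAP in outer cells, read 7.24, 8.07 and 8.23 with scramble and 8.53, 8.23 and 8.32 with the mimic. Its difference of 0.51 (SE 0.34) fell to 0.21 with scramble replicate 1 left out, and to 0.12 with both replicate 1 arrays left out. Tfap2c, a trophectoderm factor, had 0.43 (SE 0.18) and the only unadjusted p under 0.05 of the list, 0.0395 in the limma fit (1 of 6, where 3.17% of all genes had one). With the replicate block 2 of the 6 genes had an unadjusted p under 0.05, as 7.24% of all genes did. These were Cdx2 and Tfap2c. Their differences were the same with the block, -0.62 for Cdx2 and 0.43 for Tfap2c, with smaller SEs of 0.15 and 0.12. None of the 6 genes passed with or without the block.

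In whole embryos fewer cells of a lineage and less RNA per cell cannot be told apart. The summed signal of the 6 trophectoderm markers, Cdx2, Gata3 and Tfap2c among them, was 16.68 to 16.95 on the log2 scale with scramble and 16.44 to 16.84 with the mimic. That of the 5 epiblast markers, Sox2 among them, was 11.85 to 12.07 and 11.91 to 11.92. The ranges of the groups overlapped in both, and the dimmest marker averaged 11.87 in the first list and 8.10 in the second. Both sums were taken on linear signal. In the first the keratin genes Krt18 (mean 15.76) and Krt8 (14.91) therefore weigh most, and its overlap says little on Cdx2, Gata3 and Tfap2c. The part of these markers in the values of the lineage genes was not tested.

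Of the apical polarity and junction genes that act upstream, 17 of 18 passed the filter, 9 higher and 8 lower (53.2% of all genes were higher). Their median was 0.03, or 0.06 without both replicate 1 arrays. The limma fit gave 0 genes past the threshold (0% of all genes) and 0 with an unadjusted p under 0.05 (3.17% of all genes). With the replicate block 1 of 17 had one, near the 7.24% of all genes. The groups did not overlap in 2 of the 17, a share near the 9.7% of all genes. Llgl2, a basolateral polarity gene, had -0.27 (SE 0.13), with -0.22, -0.33 and -0.27 in the same-numbered pairs. Prkci, the atypical protein kinase C of the apical domain, had 0.30 (SE 0.15), which was 0.13 with both replicate 1 arrays left out and 0.15 without that of the scramble alone. Pard6a, a partner of that kinase, had -0.52 (SE 0.35) and -0.03 without both replicate 1 arrays. All 3 had a limma adjusted p of 0.972.

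**Figure D4:**
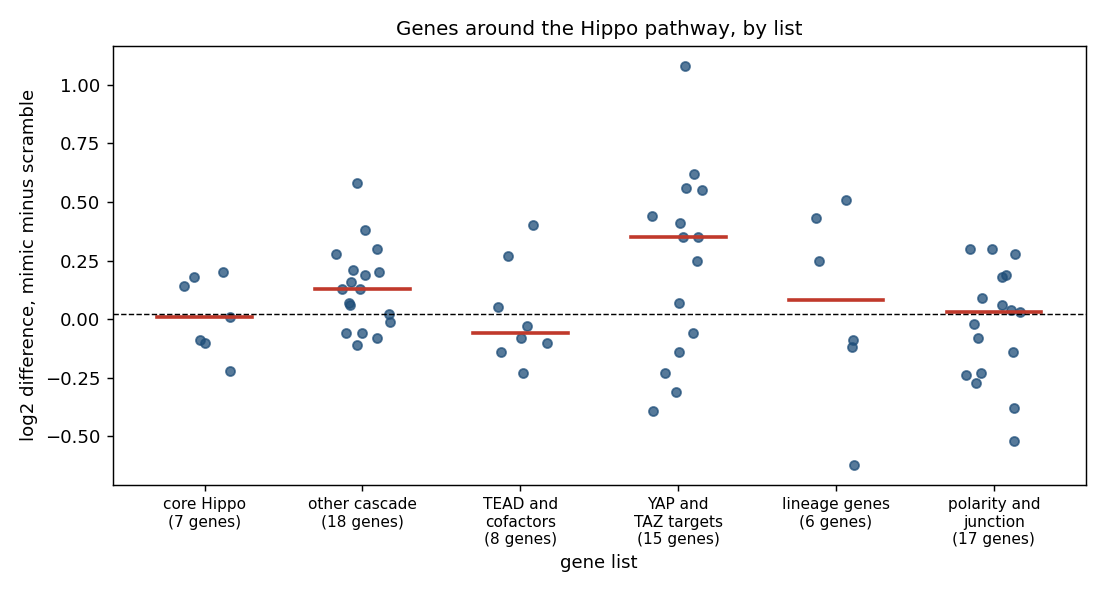
Log2 difference, mimic minus scramble (vertical axis), of each tested gene in 6 lists (horizontal axis, with the number of genes tested), with the median of each list as a red bar and the median of all genes (0.02) as a dashed line. The core Hippo genes lie between -0.22 and 0.20, and the median of the YAP and TAZ targets (0.35) is the highest of the 6.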

How the data were processed

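The authors deposited a table of log2 signal for 45220 features on 6 arrays. Neither the scanner software nor the correction and normalization of its readings is stated in the labels. The deposited values were taken as log2 signal, and their array medians were 7.366 to 7.376. On such a common scale a change shared by most genes cannot be seen. No detection flags were used. Probes were named from the platform annotation and updated by Entrez identifier through a RefSeq table (GRCm38.p6), which matched 98.2%.

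The lowest 25% of named probes by mean over all arrays (up to 7.16) were left out. The groups were then compared by limma 3.58.1 under R 4.3.3 (trended eBayes, two-sided, Benjamini-Hochberg, threshold 0.05) over 24769 probes, and over 17399 genes with the brightest probe of each. Member values are from the probe fit, list values from the gene fit. The fit was tested on simulated data. Precision is limited by 3 arrays a group. Members and lists were chosen with earlier results of these data known. All members were named, and from each other list the 3 genes with the smallest p. Same-numbered arrays deviated together (correlations of deviations 0.328, 0.349 and 0.204), all over the 0.1 required here to treat the numbers as pairs. So did scramble 2 with mimic 3 (0.185) and scramble 3 with mimic 2 (0.124), so replicates 2 and 3 are barely told apart. The pairing is read from the data, not the labels. Figures were drawn with matplotlib 3.10.9.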

Additional observations from a re-analysis of the deposited data

How the results depend on the processing

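No Hippo gene passed the limma threshold under any alternative run. With the replicate number as a block, a pairing of the arrays, 1 probe and 1 gene of the whole table passed (0 without the block), neither of them from these lists, and 1260 genes had an unadjusted p under 0.05 against 552. The block changed no other call. In every other alternative 0 probes and 0 genes passed. Without both replicate 1 arrays, 1000 of 17399 genes had an unadjusted limma p under 0.05. Among them were 5 of 15 YAP and TAZ targets, 2 of 6 lineage genes, 1 of 18 other cascade genes and 1 of 17 polarity genes. For the Hippo genes and the TEAD genes and cofactors this count was 0. With each array left out in turn, the log2 difference went from -0.28 to 0.08 for Amotl2, from -0.46 to 0.00095 for the dimmer Lats2 probe, from -0.13 to 0.45 for the brighter Nf2 probe and from -0.06 to 0.06 for Wwtr1. Wwtr1 was also -0.01 after quantile normalization, the brighter Lats2 probe 0.04 without both replicate 1 arrays, and Nf2 -0.20 as the mean of its probes. Yap1, Lats1, Amot and the dimmer Nf2 probe kept their sign under the alternatives run. Of values that kept their sign with single arrays left out, Yap1 went from -0.14 to -0.06, Lats1 from 0.01 to 0.25, the brighter Lats2 probe from -0.44 to -0.06, Stk4 from 0.12 to 0.43, Tead4 from -0.39 to -0.11 and Pard6a from -0.72 to -0.27. In the same way the median went from -0.06 to 0.08 for the Hippo genes, from -0.05 to 0.10 for the polarity genes and from 0.05 to 0.20 for the other cascade genes. The other list medians went from -0.10 to 0.22 for the lineage genes, from -0.09 to 0.02 for the TEAD genes and cofactors and from 0.12 to 0.44 for the YAP and TAZ targets as single arrays were left out. The lineage median was -0.13 without both replicate 1 arrays, and the TEAD median 0.01 with the lowest 50% of probes left out, which tested 6 of its genes. The causes of these shifts were not tested.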
